A study of Mus musculus with 36 samples.

Results

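The Cyp2 genes encode a large family of cytochrome P450 enzymes, and the 48 described here were all protein-coding autosomal genes of GENCODE whose symbol is Cyp2, a letter and a number, out of 20807 protein-coding autosomal genes. They were followed through 2 histone marks, trimethylation of H3 lysine 27 (K27me3) and of H3 lysine 4 (K4me3), by ChIP-Seq of whole pancreas from 12 mice. In this assay an antibody pulls down DNA wrapped on a marked histone, and a peak is a stretch where such DNA has more reads than background. The mice were 2 to 4 months old, received tamoxifen by gavage and were taken 22 days later, 3 per genotype. Control mice (WT) are labelled Wildtype, and the study took C57BL/6 mice, or mice with the Mist1creERT allele alone, for its controls. EZ mice carried Mist1creERT/+, an inducible Cre that acts in acinar cells, and Ezh2 without its SET domain. The 6 further mice, 3 of each of 2 genotypes, carried Mist1creERT/+ and an allele that is not reported here, and 3 of them also had the Ezh2 deletion. They enter the values taken over all 12 mice and the Ezh2 contrast, and are not compared with WT or EZ mice. Cre acts only in acinar cells, so the peaks of whole tissue also come from cells that kept Ezh2. Fewer cells of a type and less mark per cell cannot be told apart in such tissue.

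P450 enzymes bind heme and add oxygen to lipids, steroids, vitamins and foreign compounds, with electrons supplied by a reductase. Most Cyp2 genes arose by duplication and lie side by side in tandem clusters, and many are best known from liver, where nuclear receptors switch them on. K4me3 marks starts that are in use or ready for use. K27me3 is laid down by the Polycomb complex whose catalytic subunit is EZH2 and is found over silent genes.

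With neighbours allowed to lie up to 250 kb apart, 43 of the 48 genes fell into 5 clusters. On mm10 these were Cyp2j13 to Cyp2j5 (chr4:96027534-96664154, 8 genes), Cyp2s1 to Cyp2a4 (chr7:25802475-26315088, 5 genes), Cyp2b23 to Cyp2t4 (chr7:26665227-27158668, 8 genes), Cyp2d22 to Cyp2d26 (chr15:82370527-82794294, 8 genes) and Cyp2c55 to Cyp2c70 (chr19:39007019-40187333, 14 genes). Cyp2c23, Cyp2u1, Cyp2w1, Cyp2r1 and Cyp2e1 lay alone.

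The promoters showed how unlike these genes are at their starts, and 6 are printed because they carry the patterns described after them. Each is the 250 bases before the RefSeq start on GRCm38.p6, 5′ to 3′ on the gene's strand, with every CpG in capitals. The K4me3 start of Cyp2r1, the vitamin D 25-hydroxylase, lies at chr7:114562973-114563222 on the minus strand and has 16 CpG.
Cyp2r1: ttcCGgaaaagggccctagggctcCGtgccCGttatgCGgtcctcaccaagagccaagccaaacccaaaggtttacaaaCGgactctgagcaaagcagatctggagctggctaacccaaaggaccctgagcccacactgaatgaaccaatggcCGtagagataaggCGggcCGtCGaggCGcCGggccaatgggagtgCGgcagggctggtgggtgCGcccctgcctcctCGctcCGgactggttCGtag
The K4me3 start of Cyp2j6, of a subfamily known for oxidizing fatty acids, lies at chr4:96553652-96553901 on the minus strand and has 3 CpG.
Cyp2j6: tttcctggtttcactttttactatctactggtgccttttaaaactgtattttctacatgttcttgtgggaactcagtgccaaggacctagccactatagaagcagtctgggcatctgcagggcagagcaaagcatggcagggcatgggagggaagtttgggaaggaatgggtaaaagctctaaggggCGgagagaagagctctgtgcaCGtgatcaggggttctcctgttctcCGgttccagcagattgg
Cyp2c70, the enzyme that makes muricholic bile acids in mice, had K4me3 of varying width. Its promoter lies at chr19:40187287-40187536 on the minus strand and has 4 CpG.
Cyp2c70: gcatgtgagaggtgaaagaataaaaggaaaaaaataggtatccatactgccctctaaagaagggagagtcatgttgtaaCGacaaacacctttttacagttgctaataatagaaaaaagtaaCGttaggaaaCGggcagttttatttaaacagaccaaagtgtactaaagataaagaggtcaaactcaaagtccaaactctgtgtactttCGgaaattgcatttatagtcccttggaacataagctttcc
The K27me3 starts of Cyp2c65 and Cyp2c50, both in the Cyp2c cluster, lie on the plus strand at chr19:39060756-39061005, with 2 CpG, and at chr19:40089429-40089678, with 1 CpG.
Cyp2c65: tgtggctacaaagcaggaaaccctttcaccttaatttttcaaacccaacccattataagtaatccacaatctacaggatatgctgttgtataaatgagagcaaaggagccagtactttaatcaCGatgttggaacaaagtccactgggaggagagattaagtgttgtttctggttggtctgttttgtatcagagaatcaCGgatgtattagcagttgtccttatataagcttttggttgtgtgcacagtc
Cyp2c50: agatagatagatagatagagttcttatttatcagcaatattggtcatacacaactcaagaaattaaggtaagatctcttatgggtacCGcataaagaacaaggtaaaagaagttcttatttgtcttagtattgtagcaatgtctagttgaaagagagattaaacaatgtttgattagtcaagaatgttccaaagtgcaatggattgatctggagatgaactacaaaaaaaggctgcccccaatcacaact
Cyp2e1, which oxidizes ethanol and acetaminophen, had K27me3 in most mice, and its promoter lies at chr7:140763569-140763818 on the plus strand with 2 CpG.
Cyp2e1: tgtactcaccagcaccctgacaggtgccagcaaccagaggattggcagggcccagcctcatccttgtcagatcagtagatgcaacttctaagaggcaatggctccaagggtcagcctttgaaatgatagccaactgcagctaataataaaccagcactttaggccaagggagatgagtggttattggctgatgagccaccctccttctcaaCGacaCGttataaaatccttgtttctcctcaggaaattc

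The lists held 21420 to 31274 K27me3 peaks and 17400 to 26081 K4me3 peaks per mouse, with no read counts, so depth is unknown. Of markers of pancreas, all 10 acinar markers (Ptf1a, Cpa1 and others) had K4me3 at the start in 12 of 12 mice. Of 6 islet markers 1 had it in every mouse, as did 1 of 6 liver markers, 1 of 5 leukocyte markers, 4 of 4 duct markers and 2 of 4 fibroblast and adipocyte markers, with 1 to 2, 1 to 3 and 1 to 4 of the islet, liver and leukocyte markers found per mouse. Serpina1a and Tat of liver, Ins1 and Ins2 of islets, Adgre1 of leukocytes and Adipoq of adipocytes had no K4me3 in any mouse. WT replicate 2 stood apart. K27me3 reached the starts of 4774 genes there against 1879 to 3360 in the other 11 mice, and 11.7% of its autosomal K27me3 peaks overlapped a K4me3 peak against 0.693% to 4.39%. EZ replicate 2 and 3 of the 6 further mice had K4me3 at 4 of 4 Y-linked genes tested, none at Xist, and 10 to 35 K27me3 peaks on the X chromosome. The other 8 mice had Xist K4me3, none at the Y-linked genes and 5637 to 7367 such peaks. The study's methods state that each genotype had mice of both sexes, but no label gives the sex of a mouse. Y marks were found in 0 of 3 WT mice, 1 of 3 EZ mice, 3 of 3 further mice without the Ezh2 deletion and 0 of 3 further mice with it, so that among the further mice the deletion and the sex marks cannot be told apart. K27me3 peaks covered 7.21% to 9.16% of the autosomes in those 4 mice and 5.53% to 7.58% in the other 8.

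Few Cyp2 starts carried K4me3. A K4me3 peak lay within 3 kb of a start in 12 of 12 mice at 6 of 48 members (12.5%), against 58.2% of all autosomal protein-coding genes, and in no mouse at 41 members (85.4%), against 31.9%. The share of members with K4me3 minus that of other genes was −49.7 points ± 0.943 (SD over 12 mice), negative in 12 of 12 mice (exact sign-flip test, two-sided, p = 0.000488, the smallest it can give). The 6 members were Cyp2u1, which hydroxylates long-chain fatty acids, Cyp2j6 and Cyp2j9, neighbours in the Cyp2j cluster, the extrahepatic Cyp2s1, Cyp2d22 and Cyp2r1. Together with Cyp2c70, marked in 8 mice, they gave 6 or 7 members per mouse.

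**Figure D1:**
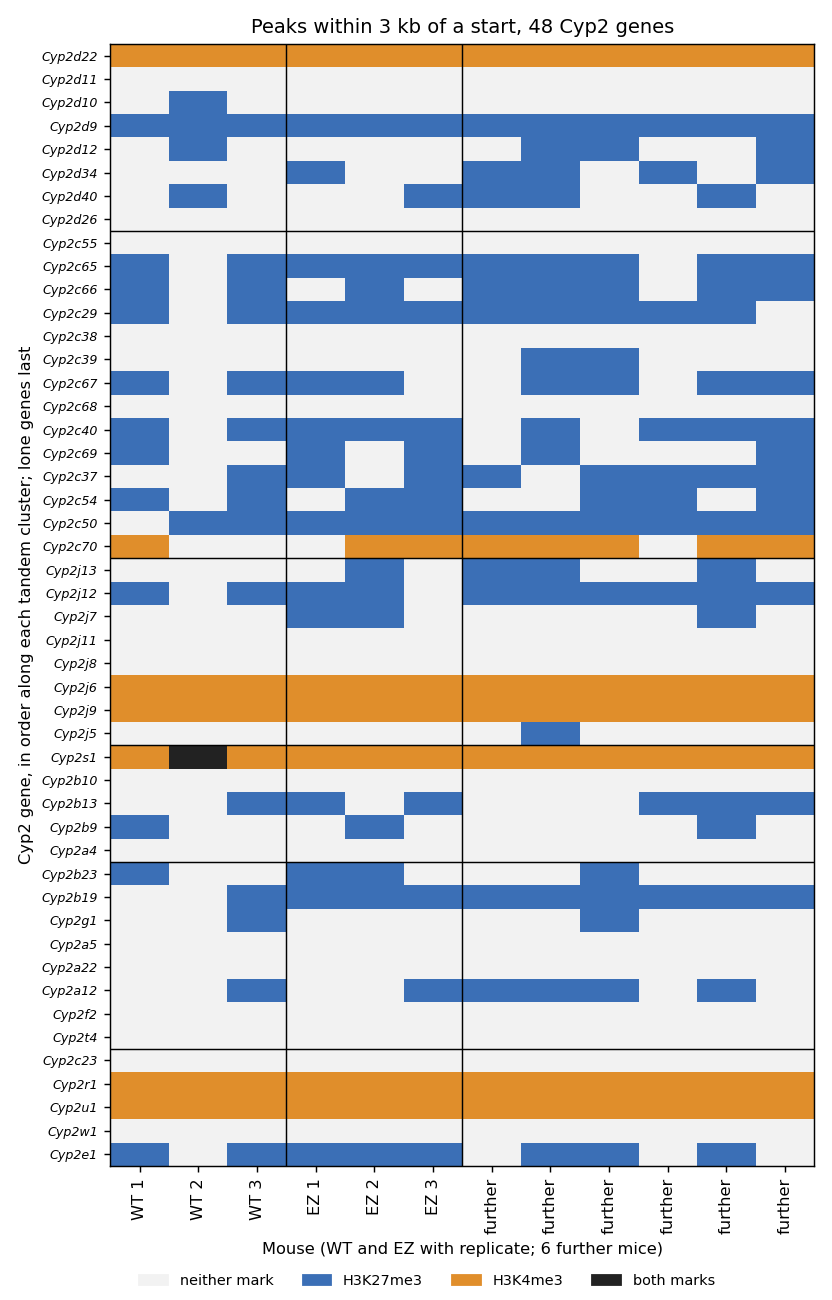
Peaks within 3 kb of any annotated start for 48 Cyp2 genes (rows, in order along each cluster, lone genes last) in 12 mice (columns, WT and EZ by replicate, then 6 further mice). K4me3 marks 6 rows in all mice, the Cyp2c rows hold more K27me3 calls than those of any other cluster, and both marks meet only at Cyp2s1 in WT replicate 2.

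The starts with K4me3 in every mouse lacked K27me3 about as often as such starts elsewhere. Of these 6 members, 5 had no K27me3 in any mouse (83.3%), against 80.1% of the 12109 other genes with K4me3 in every mouse. Cyp2s1 was the exception, with K27me3 in WT replicate 2 only. Peak widths ran from 1743 to 2330 bp at Cyp2j6, 1506 to 1871 bp at Cyp2u1, 1296 to 1589 bp at Cyp2r1, 1137 to 1544 bp at Cyp2j9, 1037 to 1327 bp at Cyp2s1 and 760 to 2144 bp at Cyp2d22 over the 12 mice. The peak at Cyp2u1 also reached the start of an antisense transcript, 4930534D22Rik, and that at Cyp2s1 the start of the lincRNA Gm26707, and the assay does not separate strands.

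RefSeq promoter windows, 250 bases before to 50 after a start, were found for 40 of the 48 members. They were poor in CpG, with a median of 2 per window (range 0 to 22) against 15 over 15687 autosomal genes. Their median ratio of observed to expected CpG was 0.152 against 0.614. Most of this gap was shared with other genes that lack K4me3. The 35 members with a window and no K4me3 in any mouse had a median of 2 CpG and a ratio of 0.117, against 3 and 0.179 over all 4752 such genes. The members with K4me3 in every mouse differed widely in CpG. Cyp2r1 had 22 CpG in its window and Cyp2s1 17, but Cyp2j9 had 6 and Cyp2j6 had 4. The last value is no higher than at Cyp2j12 of the same cluster, which had 4 CpG, no K4me3 in any mouse and K27me3 in 10. The 35 members without K4me3 had 0 to 5 CpG. The letters TATAAA, searched on both strands, were in 20 of these 35 (57.1%), against 26.3% of all windows of genes without K4me3 and 12.9% of all windows. They were in none of the 4 members with K4me3 in every mouse, against 6.36% of all windows of such genes. In the printed sequences they begin 31 bases before the start of Cyp2e1 and 162 bases before that of Cyp2c65, and Cyp2c70 holds them on the opposite strand. CCAAT was in 19 of 40 windows (47.5%) against 38.4% of all windows, and GGGCGG in 4 of 40 (10%) against 48.8% of all windows and 15.2% of those without K4me3. No window was found for Cyp2c23, Cyp2c54, Cyp2d12, Cyp2d22, Cyp2d34, Cyp2g1, Cyp2j7 and Cyp2u1.

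K27me3 peaks reached Cyp2 starts more often than other starts, counted as any overlap with the window of 3 kb either side. In bases covered, start windows had medians of 14.2% in 38 cluster members without K4me3 and 15.4% in 6591 other genes without K4me3. A member start had K27me3 in 12, 6 and 15 genes in the WT mice, 15, 15 and 13 in the EZ mice and 10 to 18 in the 6 further mice. WT replicate 2 was the lowest, and the genotypes overlapped. The share of members was 15.0 points ± 9.43 above that of other genes (SD over 12 mice), higher in 11 of 12 mice (exact sign-flip test, two-sided, p = 0.00195), and 17.3 points without WT replicate 2, the mouse that went the other way. Against the 6591 other genes without K4me3 in any mouse, the excess of the 41 members without K4me3 was smaller, 7.65 points ± 8.37 (SD), higher in 11 of 12 mice (exact sign-flip test, p = 0.0127), and 9.56 points without WT replicate 2. The excess over all other genes follows the window and the peaks used, with 7.71 points for 1 kb windows, 25.5 for 10 kb, 39.0 from 100 kb upstream and 5.47 with K27me3 peaks of at least 10 kb only. K27me3 was found in 6 or more mice at 14 members (29.2%), against 12.4% of all genes, and in 12 mice at 1 member, against 3.28%. It was found in no mouse at 21 members (43.8%), against 66.7%. Among genes without K4me3, it was found in 6 or more mice at 34.1% of members and 25.0% of other genes, and in no mouse at 36.6% and 48.2%. In single genotypes, all 3 mice had it at 1 member in WT (background 4.36%) and 7 in EZ (7.78%). The low WT count came from WT replicate 2, since WT replicates 1 and 3 both had it at 9 members (6.72%).

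Of the 14 members with frequent K27me3, 8 lay in the Cyp2c cluster, whose enzymes are known for acting on arachidonic acid, retinoids and drugs. Cyp2c50 had it in 2 of 3 WT mice and all 9 others. Cyp2c65 and Cyp2c29 each had it in 2 WT, 3 EZ and 5 further mice, and Cyp2c40 in 2, 3 and 4. Cyp2c66 followed with 2, 1 and 5 mice, Cyp2c67 with 2, 2 and 4, Cyp2c37 with 1, 2 and 5 and Cyp2c54 with 2, 2 and 3. K27me3 covered 72.7%, 29.3% and 85.8% of Cyp2c65 with 3 kb on either side in the WT mice, 81.4%, 91.2% and 96.5% in the EZ mice and 72.7% to 99% in the 6 further mice. WT replicate 2 was the one low value, and the genotypes overlapped. Cyp2c50, further along the cluster, had 16.5%, 30.6% and 41.7% in the WT mice, 22.5%, 47.8% and 39.5% in the EZ mice and 28.6% to 63.2% in the 6 further mice, again with overlap.

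Outside the Cyp2c cluster, Cyp2j12 had K27me3 in 2 WT, 2 EZ and 6 further mice, and Cyp2b19, known from keratinocytes, in 1, 3 and 6. Cyp2e1 had it in 2, 3 and 3 mice, and its cover was the most uneven outside the Cyp2c cluster. It was 12.8%, 0% and 20.5% in the WT mice, 18%, 21.2% and 24% in the EZ mice and 0% to 86.0% in the 6 further mice. Cyp2a12 had K27me3 in 1 WT, 1 EZ and 4 further mice and Cyp2b13 in 1, 2 and 3. Cyp2d9, a steroid hydroxylase known from male liver, had it in 12 mice, but only at an annotated start 18940 bp upstream of the RefSeq start, within 3 kb of which no mouse had K27me3. At the RefSeq start nearest to the GENCODE 5′ end, 37 of the 40 members with such a start had the same number of mice as over the GENCODE starts, the exceptions being Cyp2d9, Cyp2c29 (4 against 10 mice) and Cyp2c40 (6 against 9). Cyp2c39 has a second RefSeq start 163516 bp away, which had K27me3 in 7 mice against 2 at its GENCODE start.

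Another 13 members (27.1%) had K27me3 in 1 to 5 mice, near the 20.9% of other genes. They were Cyp2d34, Cyp2d40 and Cyp2c69 in 5, Cyp2d12, Cyp2j13 and Cyp2b23 in 4, Cyp2b9 and Cyp2j7 in 3, Cyp2c39, which clears retinoic acid, and the olfactory gene Cyp2g1 in 2, and Cyp2d10, the kidney gene Cyp2j5 and Cyp2s1 in 1. No peak of either mark lay within 3 kb of a start in any mouse at Cyp2b10, the classic target of phenobarbital, at the coumarin hydroxylase Cyp2a5, at Cyp2a4 and Cyp2a22 of the same subfamily, at Cyp2f2, known from lung club cells, or at Cyp2t4, Cyp2w1, Cyp2c23, Cyp2c38, Cyp2c55, Cyp2c68, Cyp2d11, Cyp2d26, Cyp2j8 and Cyp2j11. A peak list with no peak does not show that a mark is absent, since depth is unknown.

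Over whole clusters K27me3 was dense. It covered 28.7%, 10.9% and 31.6% of the 5 clusters together in the WT mice, 33.0%, 40.2% and 34.7% in the EZ mice and 24.5% to 38.5% in the 6 further mice. The clusters were above the autosomes of the same mouse in 12 of 12 mice, by 23.5 points ± 7.17 (SD, n = 12, exact sign-flip test, two-sided, p = 0.000488, the smallest it can give), a median ratio of 4.30. Without WT replicate 2 the difference was 25.2 points, and with K27me3 peaks of at least 10 kb only it was 12.3 points. K4me3 went the other way, covering 0.185% to 0.346% of the clusters against 1.32% to 1.86% of the autosomes.

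The Cyp2c cluster had the highest median cover, 45.6%, although the Cyp2d cluster was covered more in WT replicate 2 and 2 further mice. K27me3 lay over 40.6%, 6.08% and 44.7% of it in the WT mice, 46.4%, 58.0% and 52.6% in the EZ mice and 28.7% to 57.3% in the 6 further mice, with a median of 60 peaks per mouse. It fell off at the borders of the cluster, where the 500 kb on either side had a median cover of 0.25%, and 2.73% at most. The Cyp2d cluster was likewise set off from its surroundings, with a median of 27.5% against 0%, although WT replicate 2 had its highest cover here, 51.3%, and the other WT mice had 12% and 16.9%. The Cyp2j cluster had a median of 29.0% against 11.5% beside it. The Cyp2s1 to Cyp2a4 and Cyp2b23 to Cyp2t4 clusters had 21% and 17.1% against 15.5% and 14.6% beside them, and exceeded them in 9 and 8 of 12 mice. Both lie on chr7 closer together than 500 kb, so the stretches beside each cluster include part of the other. Each cluster alone exceeded the autosomes in 11 or 12 of 12 mice (exact sign-flip tests, adjusted p at most 0.000977).

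**Figure D2:**
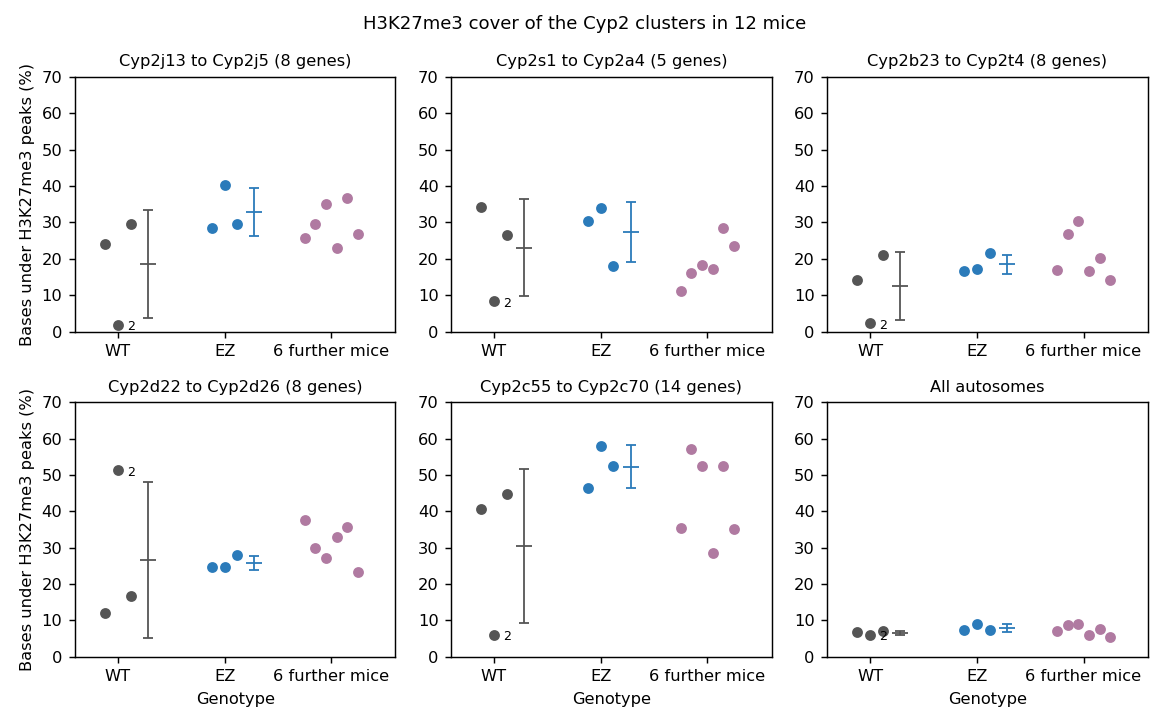
Percent of bases under K27me3 peaks in each Cyp2 cluster and on all autosomes, in WT, EZ and 6 further mice. Points are mice, with WT replicate 2 labelled 2, and bars give the mean and SD of 3 WT or 3 EZ mice, while the Cyp2c cluster reaches 58.0% while no autosomal value exceeds 9.16%.

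Within the clusters K27me3 was sparser around the starts than in the bodies of the same genes. The K27me3 lists hold no peak under 5001 bp, so a shorter marked stretch at a start would not be seen. In the 38 cluster members without K4me3 in any mouse, K27me3 covered a median of 14.2% of the windows of 3 kb around the starts and 44.0% of the rest of the gene bodies. Windows minus bodies gave −27.2 points ± 10.4, negative in 12 of 12 mice (SD, exact sign-flip test, two-sided, p = 0.000488, the smallest it can give). In the 6591 other genes without K4me3, starts and bodies had medians of 15.4% and 13.8%, with starts lower in 1 of 12 mice. The difference between starts and bodies in the Cyp2 genes minus that in the other genes was −29.0 points ± 8.01, negative in 12 of 12 mice (SD, exact sign-flip test, p = 0.000488, the smallest it can give), and −30.7 points without WT replicate 2. Long genes weigh more in these values. As a mean over genes, windows minus bodies gave −11.3 points in the Cyp2 genes and −13.0 points after subtracting the other genes. Over all members of the clusters, stretches of 75 bases that occur more than once in a cluster made up 6.50% of the start windows and 8.18% of the bodies.

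**Figure D3:**
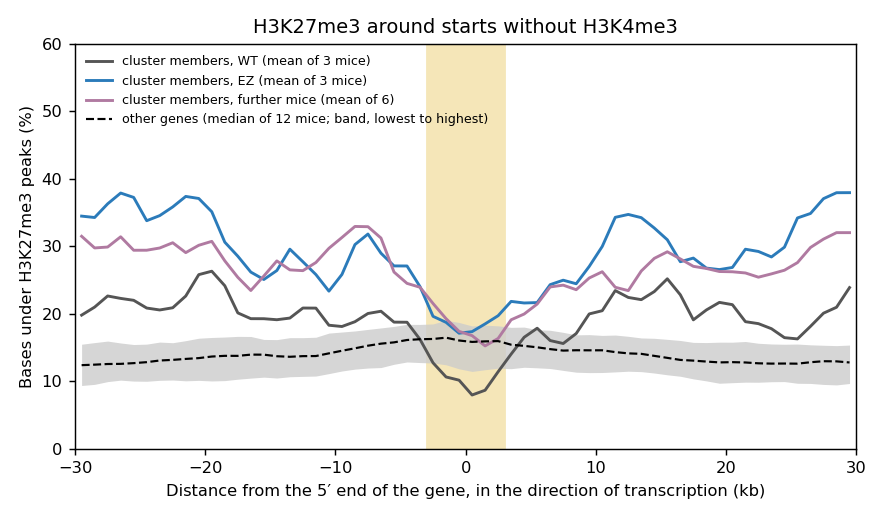
Percent of bases under K27me3 peaks in 1 kb steps around the 5′ ends of 38 Cyp2 cluster genes without K4me3, as means of 3 WT, 3 EZ and 6 further mice, beside the 6591 other genes without K4me3 (dashed, median of 12 mice, with a band from lowest to highest). The shaded part is the 3 kb window, where the Cyp2 lines dip, to medians over mice of 15.2% in the first kb downstream and 14.7% in the next. No K27me3 peak is under 5001 bp, so the steps are finer than the peaks.

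Some single genes showed this pattern and others did not. Cyp2c38 had no K27me3 within 3 kb of its start in any mouse, while K27me3 covered 46.9%, 6.29% and 45.9% of the gene with 3 kb on either side in the WT mice, 49.7%, 63.5% and 64.1% in the EZ mice and 15.1% to 63.6% in the 6 further mice. Cyp2c39 had a call at its GENCODE start in 2 mice and a median cover of 71.5%. Cyp2j8 and Cyp2j11 had a start call in none and median covers of 37.3% and 24.5%. In contrast, Cyp2b19 had a start call in 10 mice and a median cover of 11.5%, Cyp2d9 in 12 mice and 13.8%, and Cyp2a12 in 6 mice and 0.294%. Of the K4me3 genes, Cyp2j6, Cyp2j9, Cyp2u1, Cyp2r1 and Cyp2d22 had no K27me3 base in any mouse, although Cyp2j8 and Cyp2j5, which enclose Cyp2j6 and Cyp2j9, reached 60.5% and 38.4%. Cyp2c70, at the far end of its cluster, had K27me3 in 1 mouse only, over 3.04% of its span.

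**Figure D4:**
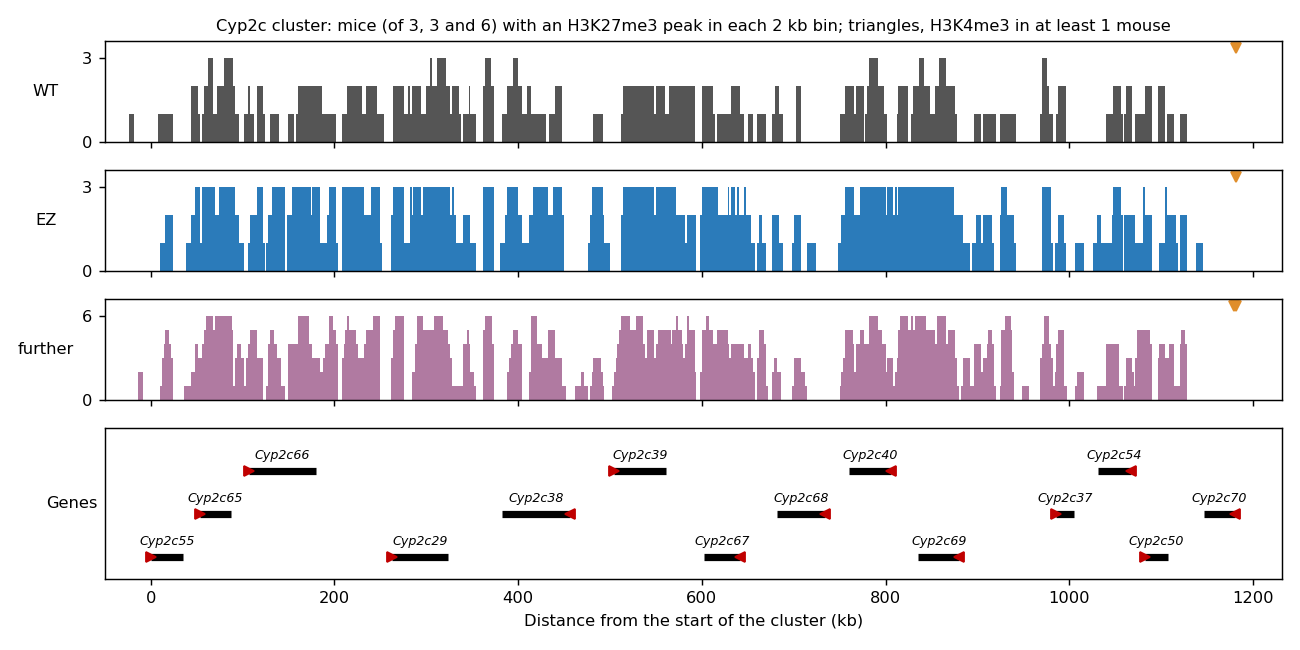
Number of WT, EZ and further mice (of 3, 3 and 6) with a K27me3 peak in each 2 kb bin along the Cyp2c cluster and 50 kb on either side, with genes as bars, red arrowheads at their 5′ ends and triangles where K4me3 was found. K27me3 runs through the cluster in WT, EZ and further mice and thins out before Cyp2c70, the site of the K4me3 peaks.

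The design asks whether loss of the EZH2 SET domain in acinar cells removes K27me3. No contrast over all 12 mice passed the test for the number of Cyp2 members or the percent of the clusters covered, and EZ against WT alone, with 3 mice each, cannot give a p under 0.1. Members with K27me3 numbered 11 ± 4.58 in WT and 14.3 ± 1.15 in EZ mice (SD, n = 3), and EZ minus WT was 3.33 members (exact permutation test, two-sided, p = 0.4). With 1 mouse left out it ran from 0.833 (without WT replicate 2) to 5.33 (without WT replicate 3). Over all genes the share with K27me3 was 14.3% ± 7.53 in WT and 12.4% ± 0.760 in EZ mice, against 22.9% ± 9.55 and 29.9% ± 2.41 of members. The higher WT mean over all genes rested on WT replicate 2, with 4774 such genes. WT replicates 1 and 3 had 1879 and 2289, below the 2405 to 2706 of the EZ mice. Over all 12 mice, the 6 with the Ezh2 deletion had 0.833 more members with K27me3 than the 6 without it, compared within 2 pairs of genotypes (exact permutation, p = 0.75), and the contrast was −0.417 without WT replicate 2. The same contrast of cluster cover was 4.22 points (exact permutation, p = 0.42), and 1.02 points without WT replicate 2 (exact permutation, p = 0.74). The pairs went opposite ways in both, since the further mice with the deletion minus those without it gave −1.67 members and −3.77 points, and in that pair all mice without the deletion and none with it had Y marks. The part of the sex marks in these values cannot be told apart from that of the deletion. EZ minus WT cover was 12.2 points (exact permutation, p = 0.1, the smallest that 3 mice against 3 can give). All 3 EZ mice, at 33.0% to 40.2%, lay above all 3 WT mice, at 10.9% to 31.6%. The autosomes were separated in the same way, with 7.37% to 9.16% in EZ and 6.06% to 7.14% in WT mice, a difference of 1.32 points (exact permutation, p = 0.1). EZ minus WT cover was 5.81 points without WT replicate 2 (exact permutation, p = 0.2) and 10.10 points without EZ replicate 2, the EZ mouse with Y marks (exact permutation, p = 0.3). The highest value with 1 mouse left out was 16.2 points, without WT replicate 3.

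Divided by the cover of the autosomes of the same mouse, cluster cover was 4.22, 1.80 and 4.43 times in the WT mice, 4.47, 4.39 and 4.69 in the EZ mice and 3.77 to 5.08 in the 6 further mice. On this scale the Ezh2 contrast was +0.838 with p = 0.045 (exact permutation), and +0.418 with p = 0.08 without WT replicate 2, so that the call rests on that mouse. EZ minus WT was 1.03 with p = 0.2 (exact permutation), and 0.190 without WT replicate 2. The further pair gave 0.646.

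Among single clusters and both marks, no Ezh2 contrast had an adjusted p under 0.5 or an unadjusted p under 0.05 (exact permutation, Benjamini-Hochberg). The contrast for K27me3 ran from −0.946 points in the Cyp2d cluster to 6.49 points in the Cyp2j cluster, where WT mice had 24.2%, 1.79% and 29.7%, EZ mice 28.4%, 40.3% and 29.6% and the 6 further mice 23.0% to 36.8%. In the Cyp2j cluster EZ minus WT was 14.2 points and the further pair −1.23. It was 6.13 points in the Cyp2c cluster, the mean of 21.9 points for EZ minus WT and −9.60 in the further pair. The Cyp2s1 to Cyp2a4 cluster had 6.19 points, where WT mice had 34.4%, 8.35% and 26.4% and EZ mice 30.4%, 33.9% and 18.1%. The Cyp2b23 to Cyp2t4 cluster had −0.882 points, from 5.94 for EZ minus WT and −7.70 in the further pair. These values rest on WT replicate 2. Without it the contrast was 5.20 points in the Cyp2d, 2.30 in the Cyp2j, 0.0389 in the Cyp2c, 2.51 in the Cyp2s1 to Cyp2a4 and −3.44 in the Cyp2b23 to Cyp2t4 cluster, and EZ minus WT was 11.3, 5.83, 9.68, −2.93 and 0.817 points in the same order. K4me3 cover of the Cyp2c cluster had a contrast of −0.0732 points (exact permutation, p = 0.05, adjusted p = 0.5), made up of −0.00189 for EZ minus WT (−0.00500 without WT replicate 2) and −0.144 in the further pair, and p = 0.035 without WT replicate 2 or without WT replicate 3.

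No member start had K27me3 in all 3 mice of one of the WT and EZ groups and in none of the other. Over all genes, 0.202% had it in all EZ and no WT mice and 0.00481% the reverse. Cyp2b13, a gene known for expression in female liver, had no K27me3 over the gene in 5 mice, 4 of them those with Y marks. K27me3 covered 28.4%, 0% and 31.6% of Cyp2b13 with 3 kb on either side in the WT mice, 31.0%, 0% and 19.2% in the EZ mice and 0% to 51.2% in the 6 further mice. The mice at 0% were WT replicate 2 and the 4 mice with K4me3 at Y-linked genes, so that among the EZ mice the one with Y marks was the one without K27me3. Cyp2b13 was 1 of 3 genes among all 20807 with K27me3 at the start in none of those 4 mice and in 6 or more of the other 8 (0.0144%). The reverse, K27me3 in all 4 and in 2 or fewer of the other 8, held for 29 genes (0.139%) and no member. Its neighbour Cyp2b9, also known from female liver, had another pattern, with K27me3 cover in 3 of the 4 mice with Y marks (0% to 29.5%) and in 3 of the other 8 (0% to 23.1%). These counts of genes were made after the values were seen. The cut of 6 of the other 8 mice is the count of Cyp2b13 itself, so its place among the 3 genes was fixed. Sex and genotype cannot be told apart in these counts.

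For the width of K4me3 peaks, 3 mice against 3 cannot give a p under 0.1, so EZ minus WT is given as a description. The Cyp2j6 peak was 1998, 1743 and 1923 bp wide in the WT mice and 2000, 2165 and 2071 bp in the EZ mice, which lay above all WT mice (exact permutation, p = 0.1, the smallest possible). EZ minus WT was 191 bp, and 118 bp without WT replicate 2. The Cyp2u1 peak was 1747, 1519 and 1859 bp wide in the WT mice and 1871, 1767 and 1864 bp in the EZ mice, with means of 1708 bp ± 173 and 1834 bp ± 58.1 (SD, n = 3, exact permutation, p = 0.2). Its Ezh2 contrast over all 12 mice was 134 bp (exact permutation, p = 0.03, adjusted p = 0.21). Without WT replicate 2 it was 86.2 bp (exact permutation, p = 0.06), and EZ minus WT was 31 bp instead of 126 bp. Cyp2d22 varied most of the 6 members with K4me3 in every mouse, with 1446, 902 and 2144 bp in the WT mice and 1612, 1085 and 1108 bp in the EZ mice. The Cyp2c70 peak was 501, 0 and 0 bp wide in the WT mice and 0, 501 and 501 bp in the EZ mice, where 0 is no peak and 501 bp is the narrowest peak in the K4me3 lists. EZ minus WT was 167 bp there (exact permutation, p = 1), and 83.5 bp without WT replicate 2, and the Ezh2 contrast over all 12 mice was −893 bp (exact permutation, p = 0.095, adjusted p = 0.294). That value came from the further pair, at −1952 bp, whose mice also differed in the Y marks. No adjusted p of the Ezh2 contrast was under 0.21 at the 7 starts.

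**Figure D5:**
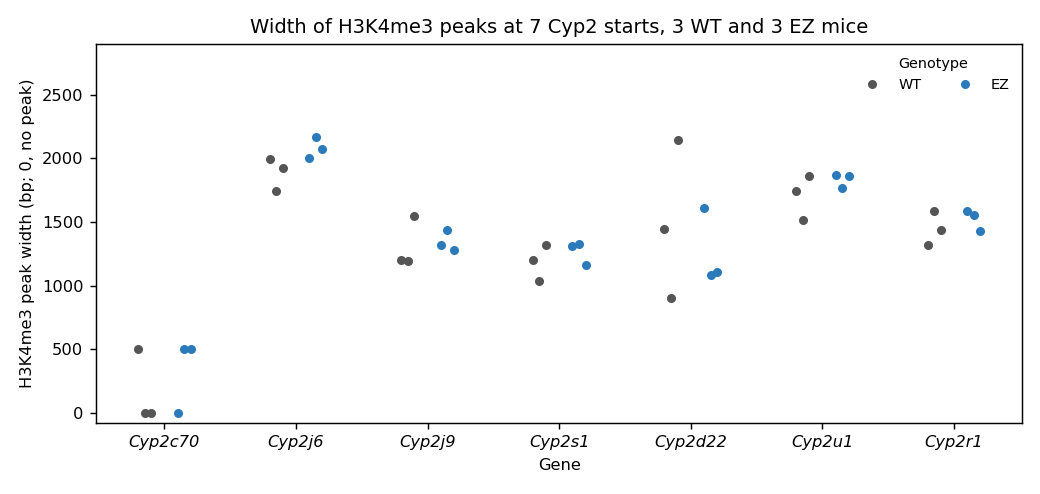
Width in bp of the K4me3 peak at each of 7 Cyp2 starts in 3 WT and 3 EZ mice, with 1 point per mouse and 0 for no peak. Points of WT and EZ mice overlap at all starts but Cyp2j6, and those of Cyp2c70 are at 0 or 501 bp.

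Most of the genes that P450 enzymes depend on had K4me3 at the start in every mouse, as did 58.2% of all genes. K4me3 was found in 12 of 12 mice at 4 of 4 electron donors, among them Por, the reductase of all microsomal P450s, and Cyb5a, and at 5 of 5 genes of heme synthesis, among them Alas1, its first enzyme. It was found in every mouse at 8 of 10 receptors and factors of P450 genes, among them Ahr, Rxra and Hnf4a, and at both epoxide hydrolases. Nr1i3, the receptor that mediates induction by phenobarbital, had neither mark at its start in any mouse. No gene of these 4 lists had K27me3 in 6 or more mice, against 12.4% of all genes. Of the other P450 families, K4me3 was found in every mouse at 2 of 3 Cyp1, 0 of 7 Cyp3 and 5 of 17 Cyp4 genes, and K27me3 in 6 or more mice at 1, 2 and 5 of them.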

How the data were processed

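The data are 24 peak lists, 1 per mark (K27me3, K4me3) and mouse. The authors checked reads with FastQC, aligned them to mm10 by bowtie2 and ran HOMER findPeaks (histone mode) mouse by mouse against local background and input, and versions were not given in the sources used here. They deposited the start and end of each peak with no signal or count, so depth and precision per library are unknown. Input libraries were not analysed here.

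Peaks were compared with GENCODE vM21 (GRCm38, the same build). A gene was called when a peak overlapped 3 kb either side of any annotated start. Clusters held 3 or more members with gaps of at most 250 kb. The Ezh2 contrast used exact permutation of labels within each of 2 strata of 6 mice (smallest p 0.005, threshold 0.05), EZ against WT 3 against 3 (smallest p 0.1), and comparisons within a mouse the sign-flip test. An allele that distinguishes the strata is not reported here, nor are its comparisons, and adjusted p-values (Benjamini-Hochberg) still count their tests (20 over clusters, 14 over widths). p-values measure the spread between mice. The members, lists and tests were chosen with earlier results of these data known. The comparison of start windows with gene bodies, peak widths, RefSeq starts, the split by Y marks, the comparison of members with other genes and the following of the Cyp2c cluster through the alternatives were added after seeing the data. Leaving out each mouse was planned, and WT replicate 2 was singled out among these after its values were seen. Every member is accounted for; calls in detail are for members with K4me3 in 2 or more mice, K27me3 in 6 or more, or 3 of 3 against 0 of 3, and pathway genes named are those at 12 or 0 mice. Cyp2c38, Cyp2c39, Cyp2j8, Cyp2j11 and Cyp2b9 were singled out after their values were seen. Paralogs share sequence, and how the aligner treated reads that match several places was not given in the sources used here. Code was tested on simulated peaks. Software was matplotlib 3.10.9, scipy 1.17.1, pandas 2.3.3 and numpy 2.4.6 under Python 3.11.15.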

Additional observations from a re-analysis of the deposited data

Results flagged for a closer look

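K4me3 at Y-linked genes was found in 4 mice, EZ replicate 2 and 3 of the 6 further mice, and in no WT mouse. These genes lie outside the autosomal comparisons. Their marks were used to describe the libraries and, after the values were seen, to split the mice for counts of autosomal genes. Groups of 3 mice are too small to look for single outlying values.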

How the results depend on the processing

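Of 336 recomputed values, 298 kept their direction and side of the threshold, 12 changed direction and 3 gained a p under 0.05. The other 23 were contrasts that moved to or from 0, or counts that changed by more than 1.5 times. The excess of cluster over autosomal K27me3 cover and the deficit of K27me3 at starts against bodies kept their direction under each alternative run. So did the excess of K27me3 calls and the deficit of K4me3 calls at member starts. The values below belong to genotype contrasts not called in the main setting, or to counts that follow the window or the peaks used. Of these contrasts, K27me3 cover divided by autosomal cover had p = 0.045 (exact permutation), which rested on WT replicate 2. The cause of each shift was not tested beyond the change of setting itself.

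With 1 kb windows the Ezh2 contrast was −0.333 members with K27me3, and 9 members had K27me3 in 6 or more mice. With 10 kb windows that count was 22 and the Ezh2 contrast of K4me3 members 0.833. With a window from 100 kb upstream, which the study used for K27me3 alone, the count was 37, with 7 members free of K27me3 and an Ezh2 contrast of 2.33 members with K4me3. With equal numbers of the widest peaks, the Ezh2 contrast was −0.167 members with K4me3 and −0.00977 points of K4me3 cover. With K27me3 peaks of at least 10 kb and K4me3 peaks of at least 1 kb, 3 members had K27me3 in 6 or more mice, and the Ezh2 contrasts were −0.333 members with K27me3, −0.333 with K4me3 and −0.0198 points of K4me3 cover. Divided by autosomal cover, the Ezh2 contrast was 0.838 for K27me3 (p = 0.045, exact permutation) and −0.00647 for K4me3. With medians it was 0.5 members with K4me3, −1.96 points of K27me3 cover, −2.59 in the Cyp2c cluster and −0.0270 of K4me3 cover.

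With 1 mouse left out, the Ezh2 contrast ran from −0.417 (without WT replicate 2) to 1.83 members with K27me3, from 1.02 (without WT replicate 2) to 6.20 points of K27me3 cover, from −0.0833 to 0.167 with K4me3 and from −0.0129 to 0.0193 points of K4me3 cover.

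Replicate numbers showed no pairing of the mice. After removing genotype means, correlations between same-numbered mice ran from −0.287 to 0.165, with a median of −0.0416. Those between mice of other numbers ran from −0.228 to 0.351, with a median of 0.0160. With the number as a replicate block, the Ezh2 contrast of K27me3 cover was 4.22 points with p = 0.594 (exact sign-flip test). No contrast run this way had a p under 0.05. Cover divided by autosomal cover and peak widths were not run this way. The lists hold no depth, so a missing peak can be a weak signal.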
